A study of Mus musculus with 6 samples.

Results

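CUT&RUN, in which an antibody directs a nuclease to cut out the DNA around its target, was used on cells of the mouse fetal testis labelled as prospermatogonia, the male germ cells of that age, at E16.5 of embryonic development. The subject here is the set of broad H3K4me3 domains, chosen by measured width: every H3K4me3 region of 3000 bp or more on chromosomes 1 to 19, X and Y in the H3K4me3 replicate 1 list. This rule gave 533 of the 64891 deposited regions, or 0.822% of the 64870 on those chromosomes. The 6 samples form 3 groups of 2 replicates, with antibodies to TAF4b, to H3K4me3 and to nothing specific (IgG, not analysed here). All were male, Taf4b-wildtype and labelled C57BL/6, and the cells were sorted on GFP from gonads of mice with the Oct4-EGFP transgene (B6;129S4-Pou5f1tm2Jae/J). The labels describe GFP+ and GFP- fractions and do not say which was used, so that the germ cell identity rests on the sample label. No group was treated, no mutant was included, and whether the 2 replicates are separate animals or pools was not given, so that their spread may be technical.

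Trimethylation of lysine 4 on histone H3 marks the first nucleosomes of active and poised promoters, above all those in CpG islands, stretches of DNA rich in unmethylated CG pairs. Most promoters carry a short interval of the mark, and a minority carry domains that run for several nucleosomes into the gene body, which in other cell types often lie at genes of cell identity and at developmental regulators. TFIID is the general transcription factor that recognises promoters and, through its TAF3 subunit, H3K4me3, and TAF4b is a germ cell enriched subunit of TFIID.

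The sequences below show the DNA behind the TAF4b results, as read from GRCm39 with all annotated exons left out. Each is written 5′ to 3′ on the strand of the gene. The first 4 are TAF4b replicate 2 peaks inside broad domains, with scores from 141.7 (Sin3a) to 68.8 (Peg10, the median of such peaks), each with at least 100 bases outside exons. Capitals mark the GC box GGGCGG and the CCAAT box, each on either strand. They are Sin3a (chr9:56983342-56983516, + strand), Hexim1 (chr11:103006849-103007014, + strand), Zdhhc5 (chr2:84546022-84546210, - strand) and Peg10 (chr6:4749195-4749383, + strand).
Sin3a: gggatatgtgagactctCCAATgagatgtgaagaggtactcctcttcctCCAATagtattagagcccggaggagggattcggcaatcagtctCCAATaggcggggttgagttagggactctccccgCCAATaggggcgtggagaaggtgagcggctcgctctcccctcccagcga
Hexim1: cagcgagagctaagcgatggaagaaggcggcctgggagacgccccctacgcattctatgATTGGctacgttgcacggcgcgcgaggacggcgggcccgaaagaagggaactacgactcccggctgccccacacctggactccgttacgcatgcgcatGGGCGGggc
Zdhhc5: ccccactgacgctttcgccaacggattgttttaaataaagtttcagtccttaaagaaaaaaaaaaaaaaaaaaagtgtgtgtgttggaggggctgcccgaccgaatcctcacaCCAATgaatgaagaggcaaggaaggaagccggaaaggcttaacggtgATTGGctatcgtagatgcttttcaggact
Peg10: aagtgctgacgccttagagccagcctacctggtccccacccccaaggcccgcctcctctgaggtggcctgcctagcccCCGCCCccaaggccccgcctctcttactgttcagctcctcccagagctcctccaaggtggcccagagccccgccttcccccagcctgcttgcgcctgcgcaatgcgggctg
The Sin3a peak held 4 CCAAT boxes and no GC box, the Hexim1 peak 1 of each, the Zdhhc5 peak (at a palmitoyltransferase gene) 2 CCAAT boxes and the Peg10 peak 1 GC box. The Peg10 peak lay 1883 bp after the start site, and its domain held no TAF4b replicate 1 peak.

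The next 4 stretches lie in the 200 bases before the start sites of genes for transcription factors whose broad domains held no TAF4b peak in either library, with the same boxes in capitals. They are Prdm12 (chr2:31529530-31529729, + strand), Hic1 (chr11:75060346-75060545, - strand), Sp5 (chr2:70305067-70305266, + strand) and Meis2 (chr2:115896342-115896488, - strand).
Prdm12: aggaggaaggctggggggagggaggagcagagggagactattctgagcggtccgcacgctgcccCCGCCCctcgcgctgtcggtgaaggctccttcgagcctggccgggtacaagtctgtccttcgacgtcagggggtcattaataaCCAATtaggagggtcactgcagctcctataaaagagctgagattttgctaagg
Hic1: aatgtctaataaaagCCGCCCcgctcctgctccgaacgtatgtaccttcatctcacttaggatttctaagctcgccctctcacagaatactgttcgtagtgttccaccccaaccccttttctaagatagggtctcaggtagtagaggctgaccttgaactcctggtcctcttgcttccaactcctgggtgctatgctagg
Sp5: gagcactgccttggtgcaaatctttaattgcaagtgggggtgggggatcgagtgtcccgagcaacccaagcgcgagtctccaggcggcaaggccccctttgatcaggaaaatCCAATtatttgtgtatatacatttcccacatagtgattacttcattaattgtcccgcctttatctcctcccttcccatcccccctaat
Meis2: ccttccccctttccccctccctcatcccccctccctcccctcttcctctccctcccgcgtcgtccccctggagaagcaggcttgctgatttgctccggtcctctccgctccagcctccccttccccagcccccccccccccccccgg
The Prdm12 stretch held 1 GC box and 1 CCAAT box, the Hic1 stretch 1 GC box, the Sp5 stretch 1 CCAAT box and the Meis2 stretch neither, so that both sets held such boxes. CG pairs numbered 11 in the Prdm12 stretch and 6 in each of the Hic1, Sp5 and Meis2 stretches, beside 19 in the Hexim1 peak and 8 in each of the Sin3a, Zdhhc5 and Peg10 peaks.

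The lists differed much in size. H3K4me3 replicate 2 held 1730 regions, and the TAF4b lists held 7861 (replicate 1) and 848 (replicate 2) peaks. Read totals are not in the lists, so the depth is unknown. The largest H3K4me3 replicate 2 region on these chromosomes was 1752 bp wide, so that no replicate 2 region met the limit and the width of a domain has no replicate. As a check of the cell type, 35 of 36 germ cell genes were nearest to at least 1 H3K4me3 replicate 1 region (23 with a promoter region), and so were 15 of 16 Sertoli cell genes (8), 11 of 14 Leydig and interstitial genes (8) and 11 of 14 endothelial and blood genes (3). Over all coding genes the counts were 16103 and 9651 of 21738, so a region near a gene says little about cell type. What other cells add to the domains was not tested.

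The 533 domains were 3003 to 6768 bp wide, with a median of 3453 bp and quartiles of 3184 and 3939 bp. Together they covered 1964 kb, 3.17% of the length under all regions. Their peak scores, the authors' value per region, ran from 122.2 to 518.7 with a median of 235.5. Width and score both come from the list that chose the domains, so these values are descriptions. Over all regions the 2 rose together (Spearman rho 0.912, n = 64870 regions of 1 library), and within the domains less closely (rho 0.637, n = 533). Per kb, the score was lower in the domains (median 64.5) than in the 5131 narrower regions of the same score range (median 78.5), which the longer widths give by construction at like scores, and it hardly followed width among the domains (rho 0.0494). By width alone it was level from 1000 bp up: the medians were 64.15 in all regions of 1000 to 1500 bp, 63.5 at 2000 to 3000 bp, 64.4 at 3000 to 4000 bp and 65.6 at 5000 bp or more. Below 1000 bp it was lower, with medians of 47.6 at 500 to 600 bp and 58.3 at 600 to 1000 bp. The narrowest domains, at Rad51b (3003 bp, a recombination gene), Leng9 and Grip1 (3005 bp each), Nol4l (3008 bp) and Pde4a (3011 bp), scored 189.3 to 237.0. Just below the limit lay regions of 2998 bp near Gm26550, Sox5, Skor2 and an unnamed transcript and one 1 bp wider near Pgr, the progesterone receptor gene, which scored 105.8 to 205.7. The scores on either side of the limit overlap.

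**Figure D1:**
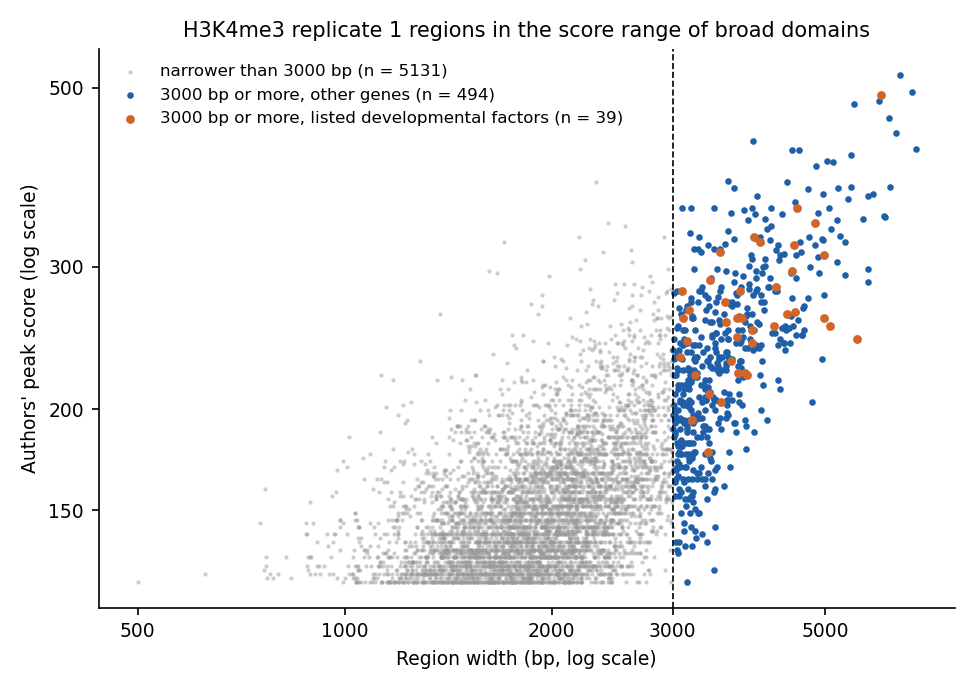
Width (bp, log scale) against the authors' peak score (log scale) of H3K4me3 replicate 1 regions with scores between 122.2 and 518.7. Each point is 1 region; the 533 points right of the dashed line at 3000 bp are the broad domains, 39 of them at listed developmental factors.

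The widest domain, 6768 bp with a score of 420.3, lay over Adm, which encodes the peptide hormone adrenomedullin. Next came a domain of 6675 bp (score 493.4) at Gnas, the imprinted locus of a stimulatory G protein subunit. The Sin3a domain, at the gene for the scaffold of a histone deacetylase complex, was 6423 bp wide and had the highest score of the domains, 518.7. Domains of 6325 bp at the immediate early gene Ier2, 6215 bp at the synaptic scaffold gene Ppfia3 and 6192 bp at Dusp4, a MAP kinase phosphatase, followed. Others among the 20 widest lay at the transcription factor genes Dmrta2 (6110 bp), Prdm12 (6075 bp), the repressor gene Hic1 (5991 bp), Sp5 (5776 bp), the homeobox gene Meis2 (5556 bp) and Helt (5453 bp), with Fzd8, a Wnt receptor, at 5503 bp. Tnrc18, a chromatin protein gene, had 5774 bp. A further 4 were named for a noncoding transcript, and 3 of these held the start of a coding gene: 9330160F10Rik (5865 bp) Borcs6, Gm10655 (5776 bp) the corepressor gene Tle3, and Gm15222 (5674 bp) the growth factor gene Bmp4. Of these 4, the Gm10421 domain (5455 bp) held no coding start. On the plot of domains by distance from the start, the site lay near one end in some (Bmp4, with 432 bp upstream and 5242 bp downstream) and far inside in others (Sin3a, with 5029 bp upstream and 1394 bp downstream).

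**Figure D2:**
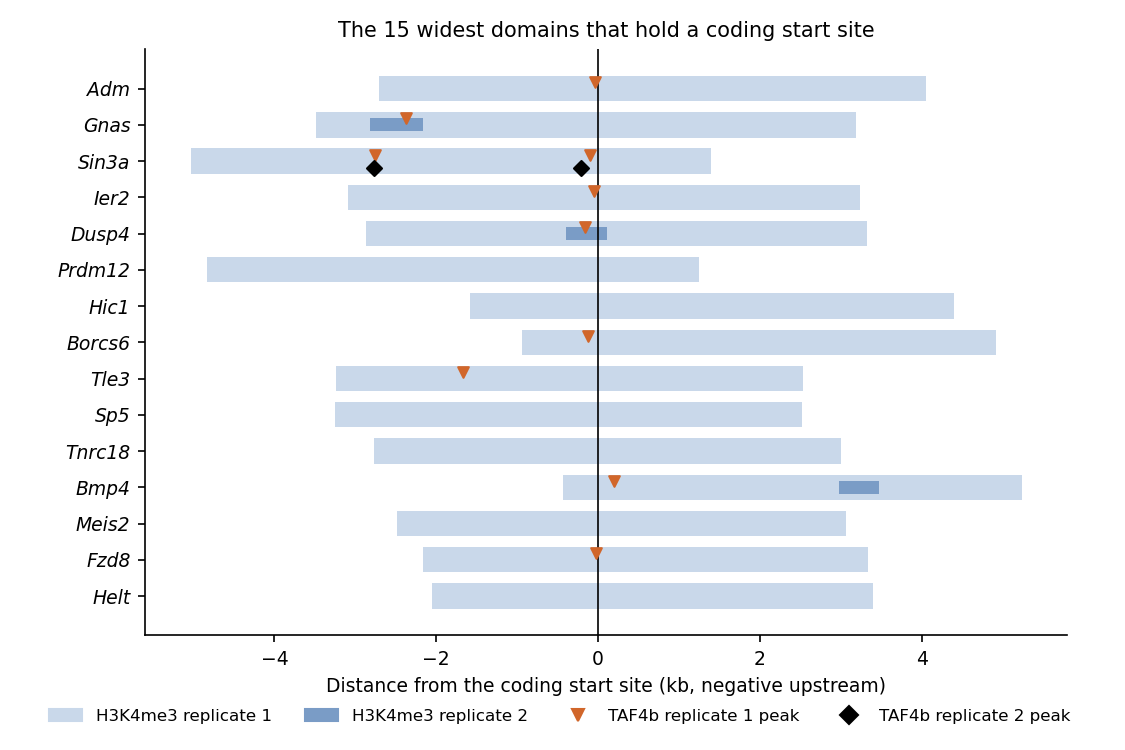
The 15 widest domains that hold a coding start site, drawn to scale by distance from that site (kb, negative upstream). Light bars are H3K4me3 replicate 1 domains, dark bars H3K4me3 replicate 2 regions, triangles TAF4b replicate 1 peaks and diamonds TAF4b replicate 2 peaks; the Sin3a domain holds 2 peaks of each TAF4b library.

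Broad domains lay at gene starts. By the deposited class, which is set by the centre of the interval, 297 of 533 (55.7%, 95% Wilson interval 51.5 to 59.9) were promoter-TSS, beside 20.7% of regions of all widths. A further 95 were classed as exon, 87 as intron, 32 as intergenic (6.00%) and 22 as TTS, the transcription end. The class understated the starts: 419 domains (78.6%, 74.9 to 81.9) held the start site of a coding gene, beside 17.4% of all regions, and 500 (93.8%) held the start of a coding or long noncoding gene. Of the 236 domains outside the promoter class, 154 (65.3%) held a coding start. Weighted to the same score quartiles, narrower regions were promoter-TSS in 49.4%, a difference of 6.29 percentage points (-0.478 to 12.9), which their counting error does not exclude from 0. They held a coding start in 62.2%, a difference of 16.4 points (10.4 to 22.7). The domains are also longer (medians of 3453 and 1930 bp) and so take in more sequence.

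More than 1 gene often started inside a domain. Counting coding and long noncoding genes, 192 domains held 1 start, 221 held 2, 70 held 3, 14 held 4 and 3 held 5. So 308 (57.8%) held at least 2, against 36.2% of narrower regions of the score range and 9.60% of all regions. In all, 460 coding genes started inside a domain. The nearest transcript was protein coding for 448 domains and a long noncoding RNA for 52, and 8 transcripts were not found in the annotation.

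Where a domain held 1 coding start (381 domains), it reached a median of 1392 bp upstream (quartiles 869 and 2038) and 2163 bp downstream (1598 and 2801) of it. The downstream arm was the longer in 261 of 381 (68.5%). In narrower regions with 1 coding start the medians were 737 and 1216 bp, and the downstream arm was the longer in 77.7%. The widths that chose the 2 sets fix the longer arms of the domains.

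Developmental transcription factors were the list with the highest share of genes named by broad domains. Of 170 listed homeobox, T-box, GATA, Pax, Sox and forkhead genes outside the Hox clusters, 35 (20.6%, 15.2 to 27.3) were named, beside 2.01% of all 21738 coding genes. The ranking holds for naming only: 32 of the 170 started inside a domain, and 6 of 31 imprinted genes did, a slightly higher share. The named genes include Meis2 (5556 bp), the forkhead gene Foxb2 (5080 bp) and both Irx2 and Tbx3 (4977 bp each), which pattern the embryo. They span neural (Otx1, 4544 bp; Emx1, 3517 bp), endodermal (Gata6, 4505 bp; Cdx2, 3398 bp) and mesodermal (Eomes, 3937 bp; Foxf1, 3579 bp) regulators. The median of the widest region per gene over the 161 genes with any region was 2072 bp, against 1327 bp over all coding genes. Of 39 Hox genes, 2 were named (5.13%, 1.42 to 16.9), Hoxd12 (3730 bp) and Hoxa10 (3520 bp), and Hoxa11 started inside a domain of 3524 bp named for its antisense gene. The median of the widest region per Hox gene was 2148 bp, and the 2 lists were not tested against each other. Because the lists were chosen with results of these data known, the counts are descriptions.

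Among 36 germ cell genes, 2 (5.56%, 1.54 to 18.1) were named, an interval that includes the 2.01% of all coding genes: Sox2 (3715 bp, score 259.4), a pluripotency factor that is also on the developmental list, and Zbtb16 (3395 bp, score 174.4), which maintains spermatogonial stem cells. Both held a TAF4b replicate 1 peak. Widths below the limit were seen at Prdm1 (2875 bp) and Prdm14 (2787 bp), both germ cell specification genes, at Ddx4 (1593 bp) and Pou5f1 (1451 bp), and at Dazl (1005 bp). The median of the widest region per germ cell gene was 1575 bp. For Sertoli cell genes it was 1576 bp, and 2 of 16 (12.5%, 3.50 to 36.0) were named, Wt1 (3764 bp) and Fgf9 (3085 bp). That interval lies above the 2.01% but rests on 2 genes and overlaps the interval of the germ cell genes. The part of Sertoli cells in the domains was not tested. None of 14 Leydig and interstitial genes, 14 endothelial and blood genes and 14 housekeeping genes was named, which allows a share of up to 21.4% in each.

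Smaller lists gave a few named genes each. Immediate early and stress response genes were named in 4 of 27 (14.8%, 5.92 to 32.5): Ier2 (6325 bp), Atf3 (4623 bp), Egr2 (4607 bp) and Junb (3022 bp). Imprinted genes were named in 4 of 31 (12.9%, 5.13 to 28.9): Gnas, Peg3 (3922 bp, score 429.3), Mest (3480 bp) and Peg10 (3252 bp). The Peg3 and Peg10 domains also held the starts of their neighbours Usp29 and Sgce. Cell cycle genes gave 2 of 18, Ccnd1 (4871 bp) and E2f3 (4037 bp), and histone genes 3 of 73, led by H3c1 (4248 bp), whose domain held the starts of H1f1, H3c1 and H4c1. In these gene clusters a domain is named for 1 gene only, and 9 of the 73 histone genes started inside a domain, as did 6 of the 31 imprinted genes. Single genes were named among 18 TFIID subunits (Taf11, 3309 bp), 32 splicing factors (Hnrnpl, 3501 bp) and 80 ribosomal proteins (Rpl41, 3395 bp). Zinc finger genes of the Zfp series were named in 7 of 413 (1.69%), led by Zfp503 (4837 bp) and Zfp703 (4396 bp), a share near that of all coding genes. None of the 18 listed writers and erasers of H3K4 methylation (which allows up to 16.7%) and none of the 28 listed Polycomb complex genes (up to 10.7%) was named. The listed writer gene Kmt2a started inside a domain of 3788 bp named for the noncoding Gm39326, and related genes outside these lists were named, Kmt2e (4081 bp) and Sfmbt2 (3661 bp).

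**Figure D3:**
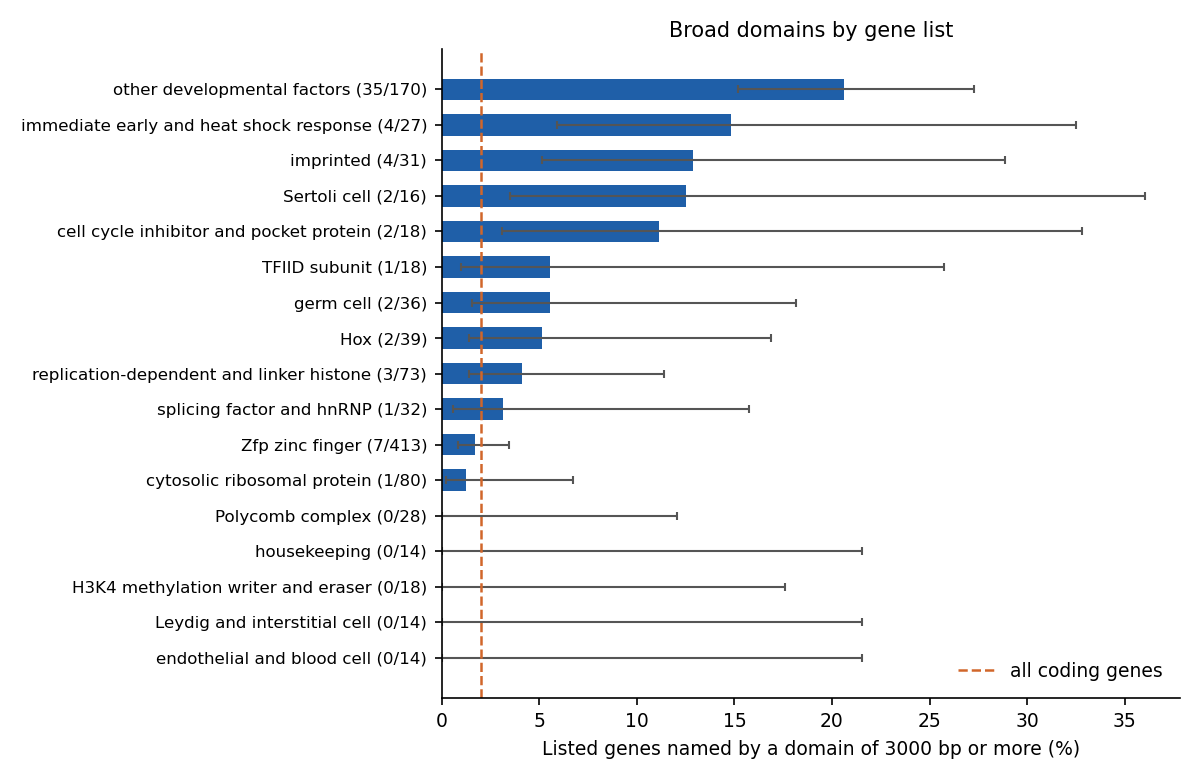
Share of listed genes named as nearest to a broad domain (%), with 95% Wilson intervals for counting error and the counts in brackets. The dashed line is the share of all coding genes (2.01%); the list of developmental factors outside the Hox clusters has the highest share, 20.6%.

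TAF4b replicate 1 peaks were found in about as many broad domains as narrower regions of like score, and replicate 2 peaks in fewer, by a difference whose interval reaches 0. In TAF4b replicate 1, 175 of 533 domains (32.8%, 29.0 to 36.9) held a peak, beside 9.61% of regions of all widths. Narrower regions weighted to the same score quartiles gave 32.7%, a difference of 0.134 points (-6.53 to 6.19). In replicate 2, 22 domains (4.13%, 2.74 to 6.17) held a peak, beside 1.16% of all regions, and narrower regions gave 6.64%, a difference of -2.52 points (-6.79 to 0.012). The mean difference over both libraries was -1.19 points ± 1.87 (SD, n = 2), with p = 1.0 by an exact two-sided sign-flip test, which with 2 libraries cannot go below 0.5. By score quartile, from low to high, replicate 1 peaks were in 31.2, 30.1, 32.6 and 37.5% of domains and in 29.8, 32.2, 35.3 and 33.3% of narrower regions. Replicate 2 peaks were in 3.28, 2.80, 5.30 and 5.15% of domains and in 4.92, 8.71, 9.41 and 3.33% of narrower regions, lower in the domains in 3 of 4 quartiles with intervals that overlap. The highest quartile held only 30 narrower regions. The outcome rests on the weighting by score: against all narrower regions, unweighted, the differences were 23.4 and 2.99 points, and at limits of 2000 and 5000 bp replicate 1 gave 7.80 and 14.4 points. At 4000 bp replicate 1 gave -0.51 points (-11.9 to 11.2) and replicate 2 -4.66 (-12.8 to 0.359). Lower differences came from the central 500 bp, with -6.41 points (-11.8 to -2.47) in replicate 1 and -2.53 (-6.12 to -0.742) in replicate 2, and from the promoter class, with -4.86 (-14.4 to 3.53) and -5.15 (-12.97 to -0.790). Regions holding a start gave -1.57 (-9.34 to 4.92) and -3.69 (-9.53 to -0.823).

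**Figure D4:**
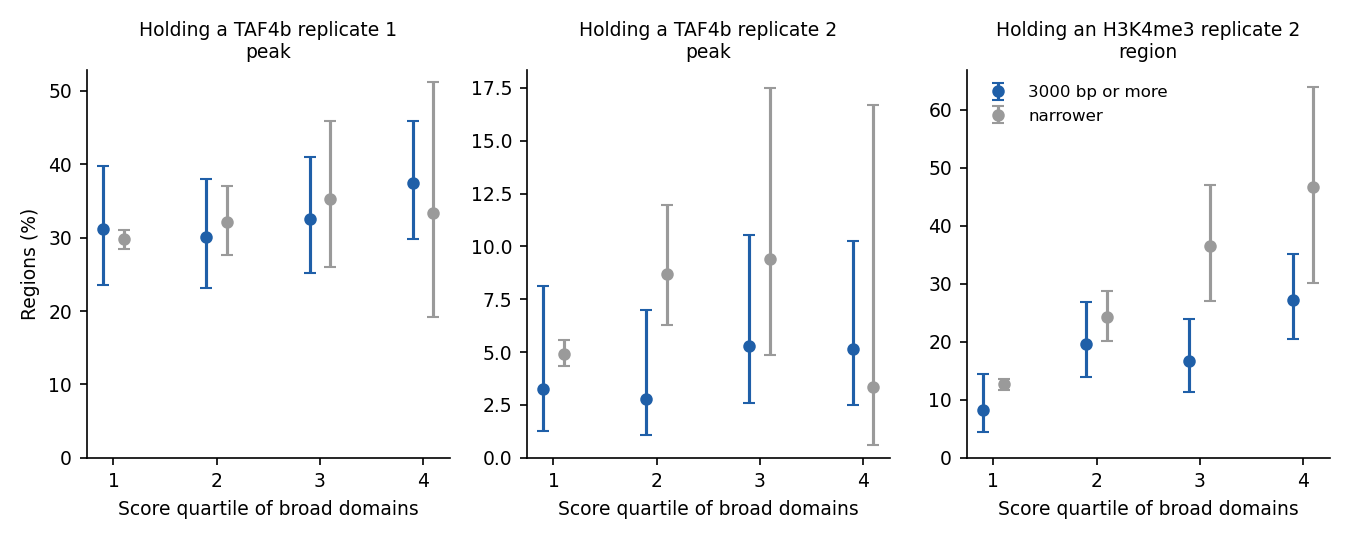
Share of regions (%) with an interval of each other library, by quartile of the domains' scores, for broad domains (blue) and narrower regions (grey), with 95% Wilson intervals. The intervals overlap in every quartile of both TAF4b libraries and in 3 of 4 quartiles of H3K4me3 replicate 2. The domains' shares lie below those of narrower regions in 2 of 4 quartiles (TAF4b replicate 1), 3 of 4 (TAF4b replicate 2) and 4 of 4 (H3K4me3 replicate 2).

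Per kb, fewer TAF4b peaks were listed in the domains than in narrower regions. Like shares of regions with a peak give a lower rate by construction where regions are longer. Replicate 1 gave 220 peaks over 1964 kb, or 0.112 per kb, which is 0.677 times (0.591 to 0.773) the rate in narrower regions of like score. In replicate 2 the 25 peaks gave a ratio of 0.442 (0.286 to 0.653). Most peaks sat near a start: of 192 replicate 1 peaks in domains with a coding start, 56.3% lay within 250 bp of it, a window that makes up 14.5% of that length, and the median position was 42.5 bp upstream. Another 21.4% lay more than 1000 bp away. Of the 460 coding starts inside domains, 120 (26.1%, 22.3 to 30.3) had a replicate 1 peak within 250 bp, against 33.0% in narrower regions, a difference of -6.95 points (-14.8 to -0.349). In replicate 2 the shares were 15 of 460 (3.26%) and 8.69%, a difference of -5.43 points (-11.3 to -2.59). Both intervals lie below 0 at this limit. At 2000 bp replicate 1 gave -2.10 points (-6.21 to 1.59) and at 4000 bp replicate 2 gave -2.27 (-10.1 to 2.58). The direction also depends on the limit: at 5000 bp (31 domains) the differences were 16.4 points (-6.13 to 37.8) and 2.05 points, and in replicate 2 it was also reversed at 2000 bp, with a difference of 1.18 points and 1.07 times as many peaks per kb.

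Among promoter-TSS regions the TAF4b share was higher in wider regions up to 3000 bp. Replicate 1 peaks were in 8.84% of promoter regions of 500 to 600 bp, 33.3% of those of 1000 to 1500 bp and 45.2% of those of 2000 to 3000 bp. The domains of 3000 to 4000 bp gave 38.2% (32.1 to 44.6), those of 4000 to 5000 bp 38.5% and those of 5000 bp or more 41.2% (7 of 17). Among regions with a coding start inside, the share was 43.6% at 2000 to 3000 bp, 35.3% at 3000 to 4000 bp and 35.1% at 4000 to 5000 bp. At 5000 bp or more it was 60% (15 of 25, 40.7 to 76.6). In replicate 2 the shares at these 4 widths were 8.86, 5.36, 2.60 and 4.0% (1 of 25). By the number of starts, 121 of 308 domains (39.3%, 34.0 to 44.8) with at least 2 genes starting inside held a replicate 1 peak, against 48 of 192 (25.0%, 19.4 to 31.6) with 1. Narrower regions showed the same order, with 45.9% and 28.0%.

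The TAF4b peaks within the domains differed in strength. Sin3a held 2 peaks in each library, and its replicate 2 peak 206 bp before the start scored 141.7, rank 13 of that list, with a replicate 1 score of 50.1. The second pair lay more than 1000 bp upstream, still inside the domain, with scores of 64.8 in replicate 2 and 30.3 in replicate 1. At Srgap2 and Fam72a, a pair of genes read in opposite directions, the scores were 125.5 and 56.6. The peak at Zfp687, a zinc finger gene, scored 105.3 in replicate 2 and had no partner in replicate 1. Ankhd1 gave 85 and 42.7, and Hexim1, an inhibitor of transcription elongation, 81.0 and 48.6. Of the 22 domains with a replicate 2 peak, 18 also held a replicate 1 peak, and these were 18 of the 175 domains with a replicate 1 peak. The 2 peaks need not coincide: at Sdc1 they lay 711 bp after the start (replicate 1) and 34 bp before it (replicate 2). The same overlap in narrower regions is not given here. Scores of the 2 libraries are not on a known common scale. Over all domains the median replicate 1 score was 15.15, against 18.4 in narrower regions of the score range and 14.9 over the whole list. In replicate 2 the order was the other way round, with 68.8 in the domains (25 peaks) and 60.7 in both narrower regions and the whole list. No TAF4b replicate 1 peak was listed in 358 domains, 139 held 1, 28 held 2, 7 held 3 and 1, named for Gm7461, held 4.

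The domains of developmental factors, like the other domains, were mostly without TAF4b. Counting Hox genes, 39 domains were named for a listed factor, with a median width of 3785 bp and a median score of 259.4 (other domains, 3430 bp and 231.0). TAF4b replicate 1 peaks were in 7 of the 39 (17.9%, 8.98 to 32.7), at Gata2, Hoxd12, Irx5, Meis1, Pax5, Sox1 and Sox2. Other domains held one in 168 of 494 (34.0%, 29.97 to 38.3), and these intervals overlap. In replicate 2 it was 1 of 39 (Irx5) and 21 of 494. Narrower regions of the score range gave 13.1% (19 of 145, 8.55 to 19.6) at the listed genes and 30.6% (29.3 to 31.9) elsewhere, in the same order and with intervals that do not overlap. H3K4me3 replicate 2 regions were in 10 of 39 developmental domains (25.6%, 14.6 to 41.1) and 87 of 494 others (17.6%, 14.5 to 21.2), whereas narrower regions had the opposite order, with 15 of 145 (10.3%, 6.37 to 16.4) and 710 of 4986 (14.2%, 13.3 to 15.2). The intervals overlap at both widths.

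The shorter H3K4me3 list held part of the domains, as short pieces. In replicate 2, 97 of 533 domains (18.2%, 15.2 to 21.7) held a region, beside 2.6% of all regions. Narrower regions of like score held one in 30.4%, a difference of -12.2 points (-18.2 to -6.11). The sign depends on the matching by score: against all narrower regions, unweighted, the difference was 15.7 points (12.7 to 19.2), and matched on quartiles of score per kb it was 15.1 (12.1 to 18.6). The replicate 2 regions in the domains had a median width of 500 bp, the smallest width in either H3K4me3 list, and the widest was 964 bp. On average they covered 17.0% of the domain's length, against 33.5% in narrower regions, and 3 domains held more than 1. The Gnas domain held 1 replicate 2 region of 646 bp and the Dusp4 domain 1 of 500 bp, while the Adm, Sin3a and Ier2 domains held none.

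In sequence, the domains were extended CpG-rich stretches. Their median GC content was 57.6% and their median CpG density 51.9 per kb (quartiles 43.6 and 61.7), against 56.1% and 45.2 per kb in narrower regions of the score range. The observed over expected CpG ratio was 0.637 against 0.579. In the central 500 bp the order was the other way round, with a median GC content of 59.2% in the domains and 61.0% in narrower regions, and a median CpG density of 56.0 and 62.0 per kb. The profile around coding starts shows where the extra CpG pairs lay. Just after the start, the mean density was 83.7 per kb in developmental domains, 86.7 in other domains and 88.2 in narrower regions. About 2.1 kb downstream it was 40.2, 34.1 and 12.9 per kb, and about 2.1 kb upstream 23.2, 17.9 and 10.5. The domains and narrower regions thus had like CpG density at the start and differed on the flanks, where the domains are defined to reach.

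**Figure D5:**
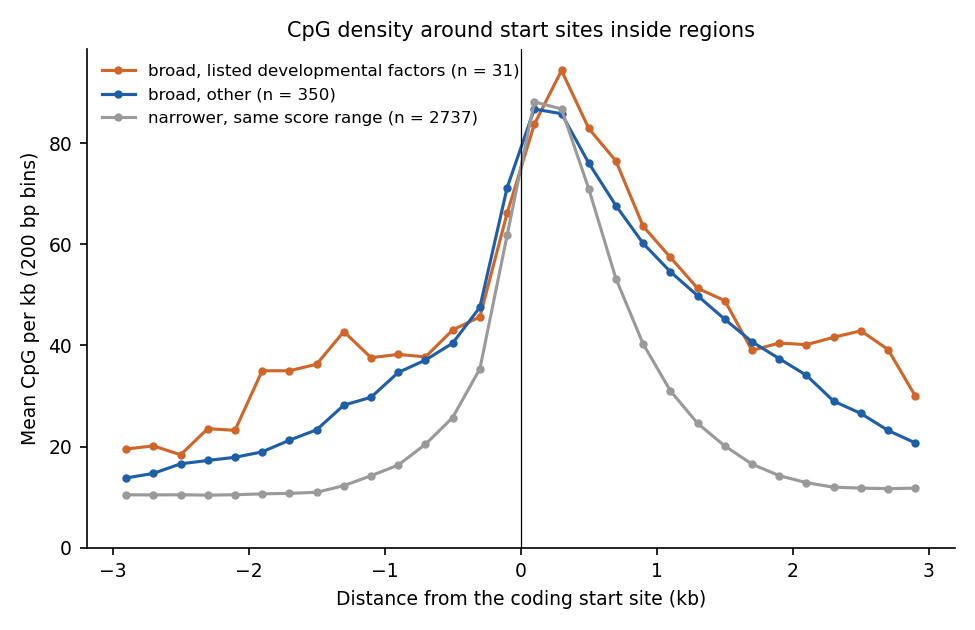
Mean CpG density (per kb, in 200 bp bins) by distance from the coding start (kb) in regions with 1 coding start. The 3 lines lie between 83.7 and 88.2 per kb just after the start and separate with distance; both broad domain lines lie above narrower regions at every bin upstream and from the bin centred at 500 bp downstream.

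Motifs were searched in the 300 bp from 250 bp before to 50 bp after each coding start, on both strands. The GC box GGGCGG was in 65.9% (61.4 to 70.1) of the 460 starts in domains, 63.8% of the 3420 in narrower regions and 42.5% of all coding starts. The CCAAT box was in 39.6%, 43.9% and 39.9%, TATAAA in 10.7%, 7.25% and 13.2%, and CCGGAA, a core of ETS factor sites, in 13.7%, 21.3% and 16.9%. Domain starts with a TAF4b replicate 1 peak within 250 bp held CCAAT in 52.5% (43.6 to 61.2), against 35.0% (30.1 to 40.2) without a peak. In narrower regions these shares were 55.9% and 36.7%. CCGGAA was in 12.5% (7.72 to 19.6) of domain starts with a peak and 14.1% without, whereas in narrower regions it was in 28.1% (25.7 to 30.6) and 17.3%. These matches describe the letters in the window and not bound sites.

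In 33 domains no start of a coding or long noncoding gene was found in the annotation used here. By the deposited distances 2 of these still held the start of their nearest transcript, a domain of 3360 bp near Gm5780 and one of 3630 bp on chromosome 3 near an unnamed transcript. The 33 had a median CpG density of 35.0 per kb and a median score of 192.3, and 6 of 33 (18.2%, 8.61 to 34.4) held a TAF4b replicate 1 peak. Among 419 domains with a canonical coding start the share was 36.8% (32.3 to 41.5). Among 81 with other starts alone it was 18.5% (11.6 to 28.3). These other starts are of long noncoding genes or of noncanonical transcripts of coding genes, as at Ppfia3. The widest of the 33 were a domain near Dmrta2 (6110 bp, 62.2 CpG per kb), one far from any start near Gm23429 (4527 bp, 20.5 per kb), 1 on chromosome 16 (4448 bp) and 1 on chromosome 15 (3969 bp) near unnamed transcripts, and one near the neural factor gene Pou3f2 (3915 bp, 35.0 per kb). Of these 5, the Dmrta2 domain held a TAF4b replicate 1 peak and the other 4 held none.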

How the data were processed

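The members and gene lists were chosen with earlier results of these data known. Each of the 4 lists holds 1 library (TAF4b and H3K4me3, 2 replicates). Per the submitters' processing notes, the tools were bcl2fastq 2.20, Trim Galore 0.5.0, FastQC 0.11.5, Bowtie2 2.3.0, SAMtools 1.9 and HOMER 4.10, with genome build GRCm39. The peak score and the region size in bp are the authors' deposited values. Annotation used GRCm39 and Ensembl 103, per the file headers for H3K4me3. The TAF4b headers name no build, and GRCm39 was taken for them: their deposited distances to the start lay within 1000 bp of the distance computed in GRCm39 for 99.4% (replicate 1) and 99.5% (replicate 2) of peaks with a matched transcript, beside 99.2% and 99.1% in the H3K4me3 lists, and within 1 bp for 57.9% and 51.8%, beside 77.2% and 66.0%. The fraction of reads focused on a TAF4b peak, also deposited by the authors, was not used. The score's normalization is not given in the sources used here, so scores rank regions within 1 list. Genes were named through the deposited transcript identifiers in GENCODE M39 (98.7% of H3K4me3 replicate 1 transcripts matched). Coding start sites are those of canonical coding transcripts. Counts of coding or long noncoding genes starting inside a region use the start of any of their transcripts.

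Sharing 1 bp or more counted as overlap. Narrower regions were weighted to the quartiles of the domains' scores. Intervals are 95% Wilson intervals, and for differences of shares combine those of both groups; they cover counting error only, and regions of 1 library are not replicates. The calculation was tested on simulated data. RefSeq promoters (GRCm38.p6) were found for 341 of 515 genes (66.2%), too few for a check of motifs, so motifs were searched in GRCm39 windows at all coding starts in place of the planned table. The share of repeats was not computed. Genes named are those of the 20 widest domains, up to 4 of the widest per list, the 5 domains with the highest TAF4b replicate 2 scores, 5 on each side of the width limit and the 5 widest without a coding or long noncoding start. Some genes that this rule selects are not reported here. Other genes were named after their values were seen. Python 3.11.15, pandas 2.3.3, NumPy 2.4.6, SciPy 1.17.1 and pysam 0.24.0 were used. Alternatives changed the width limit, the score matching, the overlap rule, the annotation rule and the TAF4b peaks used.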

Additional observations from a re-analysis of the deposited data

How the results depend on the processing

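Of 74 alternative values, 40 stayed within the error of the reported ones, and the others moved, several of them to the other side of 0 or, for ratios, of 1. The number of domains was 3434, 122 and 31 at limits of 2000, 4000 and 5000 bp, and 1021 after joining regions at most 1000 bp apart, an alternative chosen after seeing the data. The annotation share was 55.7% by the deposited class, 93.8% by a coding or long noncoding start inside and 78.2% by a centre within 1000 bp of a start.

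For the TAF4b share, the mean difference of -1.19 points became 5.11 at 2000 bp, 7.33 at 5000 bp, 13.2 without weighting by score, 12.2 with quartiles of score per kb, -4.47 in the central 500 bp and -5.01 in the promoter class, and leaving out 1 replicate gave -2.52 to 0.134. Replicate 1 alone gave 7.80, 14.4, 23.4 and 21.7 in the first 4 of these, and replicate 2 gave 2.42, 0.30, 2.99 and 2.74. At 4000 bp the mean difference was -2.59 points. The share of domains with an H3K4me3 replicate 2 region differed from narrower regions by -2.95 points at 2000 bp and -31.7 at 5000 bp. At 4000 bp the difference was -10.7 points (-21.35 to 0.092), an interval that reaches 0. It was 15.7 without weighting and 15.1 with score per kb, where the sign changed. In the last 2 settings narrower regions have lower scores by construction; for the others the cause was not tested.

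TAF4b peaks per kb in replicate 1 gave ratios of 0.525 with the higher-scoring 50% of peaks, 0.903 at 2000 bp and 0.561 at 4000 bp. In replicate 2 the ratio was 1.07 at 2000 bp and 1.38 at 5000 bp, above 1. Starts with TAF4b within 250 bp differed in replicate 1 by -2.10 points (-6.21 to 1.59) at 2000 bp, -16.7 points at 4000 bp and 16.4 (-6.13 to 37.8) at 5000 bp, and in replicate 2 by 1.18 at 2000 bp, -2.27 at 4000 bp and 2.05 at 5000 bp. At 5000 bp 31 domains remained. No paired analysis was possible because no H3K4me3 replicate 2 region reached 3000 bp, so a replicate block could not be fitted. With 2 libraries per antibody, no depth and no antibody control used here, a domain's absence from replicate 2 does not show that the mark was absent.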

Other observations

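The domains were spread unevenly over chromosomes. On the X chromosome 5 of 1569 regions (0.319%, 0.136 to 0.744) and on chromosome 16 10 of 2414 (0.414%, 0.225 to 0.761) were broad, against 0.822% over all, and both intervals lie below that value. Chromosome 18 had the highest share, 26 of 2088 (1.25%, 0.851 to 1.82), the only one with an interval wholly above 0.822% among the 21 chromosomes. On the Y chromosome 0 of 15 regions were broad, which allows a share of up to 20%.

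Some loci held more than 1 domain. Gnas was named by 3, of 3708, 6675 and 4261 bp, with a TAF4b replicate 1 peak in the first and second and none in the third. Fgf9, Irx5, Dmrta2 and Cyp26b1, the last a retinoic acid degrading enzyme, were named by 2 each, as were Kdm6b, a histone demethylase gene, Pde10a and Ptma. The smallest gap between deposited regions was 500 bp, and 58 domains had a neighbour within 1000 bp. Joined across such gaps, the widest intervals were 13130 bp at Dmrta2 and its antisense gene and 11359 bp at Irx5, and 493 of 1021 joined regions of at least 3000 bp held no single deposited region that wide.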
